A study of Mus musculus with 48 samples.

Results

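CC chemokine ligands are small secreted proteins with adjacent cysteines near the N terminus. The 10 ligands described here, Ccl2, Ccl3, Ccl4, Ccl6, Ccl7, Ccl8, Ccl9, Ccl12, Ccl17 and Ccl22, were picked out by name from a table of 18782 genes, with earlier results of these data known and no threshold on their values. All 10 passed the filter on low counts that left 14431 genes for testing. Ccl3, Ccl4 and Ccl17 passed it only through the lesion libraries: of the libraries with 10 counts or more, 9 of 10, 11 of 13 and 10 of 11 were AAD. They had to be higher there, so they are kept out of the counts over the other 7 in comparisons with AAD. The question asked of them was which are already raised in aortas exposed to β-aminopropionitrile (BAPN) that hold no lesion, and which are raised only once a lesion is present.

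The libraries came from the thoracic aortas of 48 wild-type C57BL/6J mice, each mouse giving 1 library. BAPN blocks lysyl oxidase, the enzyme that crosslinks collagen and elastin, and treated mice drank 0.4% BAPN for 28 days from 3 weeks of age while control mice drank normal water. The groups were 10 male controls (MaCon), 4 BAPN-treated males without a lesion (MaNonAD), 7 BAPN-treated males with aortic dissection or aneurysm (MaAAD), 10 female controls (FeCon), 8 females without a lesion (FeNonAD) and 9 females with one (FeAAD). NonAD and AAD mice had the same exposure and were told apart by the state of the aorta at day 28. Mice whose aorta ruptured before that day were not sequenced, so that the AAD groups hold survivors only. Males and females were housed apart, and each sex and treatment was spread over several cages of its own, fewer for controls. The cage of a mouse is not in the labels used here, so effects of cage cannot be told apart from those of sex or treatment. The paper reports taking RNA from lesioned segments of the thoracic aorta, and does not specify the segments used in mice without a lesion. Levels in AAD are those of the segment sampled, not of the whole aorta. Whether a higher level of a transcript in this tissue reflects more cells of a type or more RNA per cell cannot be told apart.

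Chemokines bind to matrix glycosaminoglycans and to G protein-coupled receptors on leukocytes, and direct the cells along a gradient. Ccl2, Ccl7 and Ccl12 recruit monocytes through CCR2, and Ccl3 and Ccl4 attract monocytes and T cells, Ccl3 in part through CCR1. Ccl6 and Ccl9 are made largely by myeloid cells and act through CCR1. Mouse Ccl8 is a ligand of CCR8, and Ccl17 and Ccl22, made by dendritic cells and macrophages, bind CCR4. In the diseased aorta the CCR2 axis is best known for bringing monocytes into the wall.

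Of the 10 genes 8 lie on chromosome 11 in a pair of clusters of the GENCODE M21 annotation of GRCm38. The deposited counts were made on GRCm39, so these positions serve only to place the genes. The first cluster runs Ccl2 (82035571 to 82037453), Ccl7 (82045712 to 82047525), Ccl12 (82101845 to 82103400) and Ccl8 (82115185 to 82116799), all on the plus strand. The second holds Ccl9 (83572919 to 83578636) and Ccl6 (83587882 to 83593087) on the minus strand, then Ccl3 (83647844 to 83649355, minus) and Ccl4 (83662584 to 83664683, plus). Ccl22 (94745590 to 94751699) and Ccl17 (94810453 to 94812036) are neighbours on chromosome 8.

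Promoter sequences were found in the RefSeq table of GRCm38.p6 for 7 of the 10 genes (not Ccl2, Ccl4 and Ccl7). The 250 bases upstream of the start are printed for 4 of them, 5′ to 3′ on the gene's own strand, with the letters that matched a searched motif in capitals. Ccl8 and Ccl12 are shown because they are neighbours of which only Ccl8 was called in NonAD, and Ccl9 and Ccl17 because they held the motif matches other than TATAAA. The intervals are chr11:82114935-82115184 for Ccl8, chr11:82101595-82101844 for Ccl12, chr11:83578637-83578886 (minus strand) for Ccl9 and chr8:94810203-94810452 for Ccl17.
Ccl8: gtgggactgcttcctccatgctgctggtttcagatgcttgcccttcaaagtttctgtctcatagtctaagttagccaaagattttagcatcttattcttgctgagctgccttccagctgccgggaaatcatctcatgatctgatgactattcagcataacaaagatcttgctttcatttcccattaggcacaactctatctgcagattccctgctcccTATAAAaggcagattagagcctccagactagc
Ccl12: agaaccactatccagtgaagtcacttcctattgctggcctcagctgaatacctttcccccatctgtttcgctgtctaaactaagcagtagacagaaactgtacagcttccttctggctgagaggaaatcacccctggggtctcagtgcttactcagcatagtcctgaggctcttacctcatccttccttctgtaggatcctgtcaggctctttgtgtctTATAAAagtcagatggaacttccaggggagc
Ccl9: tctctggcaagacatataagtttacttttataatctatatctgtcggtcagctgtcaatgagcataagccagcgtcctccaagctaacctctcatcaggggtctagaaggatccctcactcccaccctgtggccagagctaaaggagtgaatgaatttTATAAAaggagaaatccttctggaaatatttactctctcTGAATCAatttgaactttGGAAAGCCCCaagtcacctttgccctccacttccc
Ccl17: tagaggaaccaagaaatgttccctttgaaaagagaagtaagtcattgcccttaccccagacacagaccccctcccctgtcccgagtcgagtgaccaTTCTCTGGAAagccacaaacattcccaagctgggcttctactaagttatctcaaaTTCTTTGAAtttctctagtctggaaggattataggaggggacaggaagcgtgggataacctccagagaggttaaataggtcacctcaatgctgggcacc

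Ccl8 and Ccl12 each held TATAAA, from base -32 to -27 and from -31 to -26 before the start, and Ccl9 from -92 to -87. The letters TATAAA, searched on both strands, stood in 12.4% of the 32851 promoter windows of the table, which reach from 250 bases before to 50 after each start. Aligned over those windows, the Ccl8 and Ccl12 promoters were identical at 56.9% of columns, the highest of the 21 pairs, against 47.7% to 54.2% for the others. The strict NF-kB consensus was in none of the 7 windows and in 0.356% of all, and the interferon response element in none of the 7 and 2.98% of all. The loose NF-kB consensus (4.65% of all) matched Ccl9 in reverse, from -35 to -26, and the AP-1 letters TGANTCA (6.75%) matched Ccl9 from -53 to -47. The STAT letters TTCNNNGAA (7.02%) and the STAT6 motif, with a spacer longer by a base (5.85%), matched Ccl17, from -99 to -91 and from -154 to -145. None of the motifs other than TATAAA was found in Ccl8 or Ccl12. TATAAA in reverse was also present in Ccl9 and is not marked. It lay from -224 to -219, in lower case, and from -94 to -89, overlapping the capitals of the forward match.

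Library totals ranged from 13548000 to 17281273 counts. Levels are given as CPM (counts scaled to the library's total after TMM normalization), and a gene was called where edgeR's quasi-likelihood test gave a Benjamini-Hochberg adjusted p under 0.05 over all 14431 genes and a log2 fold change of at least 1 in size. Markers of smooth muscle, the main cell type of the aortic wall, summed to 11730 CPM or more in every library. Libraries FeAAD5, MaAAD7 and FeNonAD8 stood apart: FeAAD5 held the highest level of its group for 10 of 10 ligands, FeNonAD8 for 10 and MaAAD7 for 7. Values without them stand beside the results they bear on.

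In controls the transcript signal of these ligands was mostly Ccl6 and Ccl9. Per kilobase of the longest transcript, Ccl6 stood at 18.3 ± 5.4 CPM per kb (SD, n = 10) in MaCon and 32.1 ± 10.5 in FeCon, and Ccl9 at 6.21 ± 1.64 and 9.92 ± 2.96. The next 4, Ccl2, Ccl7, Ccl8 and Ccl12, lay between means of 0.751 and 2.94 CPM per kb in both control groups. Neighbours by level differed by less than their SDs, except Ccl8 in FeCon. It was the lowest of the 4 there, at 0.919 ± 0.651, and lay below Ccl12 (2.05 ± 1.56) by more than its own SD. Ccl3, Ccl4, Ccl17 and Ccl22 were near the limit of detection, at means of 0.051 to 0.350 CPM per kb. Ccl17 had 4 counts in all 10 MaCon libraries together, and was at 0 in 6 of them.

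The make-up of the summed signal differed between controls and treated mice, with NonAD between controls and AAD. Ccl6 and Ccl9 together formed 84.0% ± 3.4 of the summed level per kb in MaCon (SD, n = 10) and 83.8% ± 5.7 in FeCon (n = 10). In MaNonAD they formed 75.2% ± 11.3 (n = 4) and in FeNonAD 75.5% ± 10.3 (n = 8). In MaAAD they formed 62.8% ± 7.7 (n = 7) and in FeAAD 62.9% ± 9.3 (n = 9). Every MaAAD library, at 50.3% to 71.1%, lay below every MaCon library, at 79.5% to 89.4%, whereas FeAAD (51.1% to 77.5%) and FeCon (73.4% to 92.9%) overlapped. The shares of Ccl2 and Ccl7 were higher in AAD. Ccl2 went from 2.34% to 7.89% of the sum in males and from 3.92% to 7.01% in females, and Ccl7 from 2.98% to 10.6% and from 5.22% to 11.2%. The share of Ccl8 was 1.83% ± 1.18 in FeCon, 8.31% ± 5.46 in FeNonAD and 9.13% ± 4.55 in FeAAD. These shares are a description and were not tested.

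**Figure D1:**
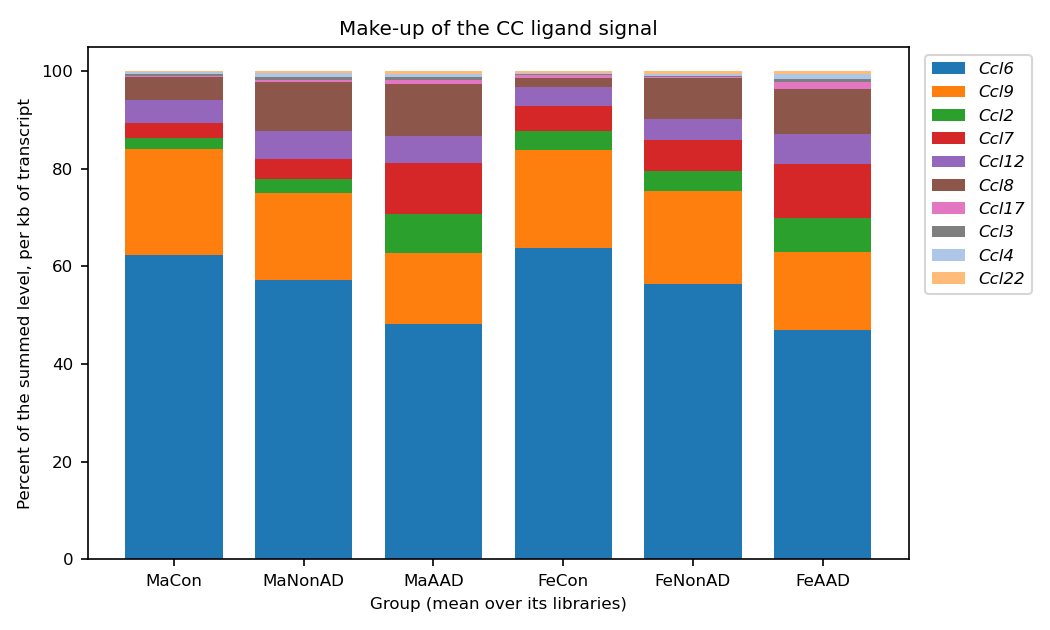
Mean share of each ligand in the summed level of the 10 ligands, in percent, per kb of transcript, for the 6 groups (bars start at 0 and add up to the whole). Ccl6 and Ccl9 together go from 84.0% in MaCon through 75.2% in MaNonAD to 62.8% in MaAAD, and from 83.8% in FeCon through 75.5% in FeNonAD to 62.9% in FeAAD.

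Compared to controls, aortas without a lesion differed in Ccl8. In females Ccl8 was the only one of the 10 ligands called in FeNonAD vs FeCon, where 1.67% of all genes tested were called higher and 1.08% lower, and none of the 10 was lower. In FeCon it ranged from 0 to 1.18 CPM with a median of 0.456, and in FeNonAD from 0.133 to 6.56 with a median of 2.21. In FeNonAD 5 of 8 libraries lay above the highest control library, and the other 3 lay within the control range, so that the groups overlapped. None of the 10 ligands had female NonAD and control groups that did not overlap. Every FeNonAD library lay above every FeCon library for 0.367% of all genes. The log2 fold change was 2.42 (SE 0.59, 95% interval 1.23 to 3.61, edgeR adjusted p = 0.00463). Without FeNonAD8 it was 2.06 (edgeR adjusted p = 0.0195).

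In males Ccl8 was again the only ligand called in MaNonAD vs MaCon, against 0.381% of all genes called higher and 0.097% lower. The 4 MaNonAD libraries held 2.57, 0.700, 11.8 and 1.00 CPM, and the 10 MaCon libraries 0.465 to 1.20 with a median of 0.669. MaNonAD1 and MaNonAD3 were above every control, and MaNonAD2 and MaNonAD4 were inside the control range. The log2 fold change was 2.52 (SE 0.64, edgeR adjusted p = 0.047), close to the threshold. It was 1.05 without MaNonAD3 (edgeR adjusted p = 0.756) and 2.68 without MaNonAD1 (0.148), so the male call rests on those libraries. MaNonAD3 held 73.4% of the group's summed Ccl8 level. Its macrophage markers summed to 1096 CPM, within the group's range of 793 to 1152, and their part in the result was not tested. The male response minus the female response was 0.098 on the log2 scale (95% interval -1.85 to 2.05), an interval that leaves room for a difference in either direction.

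Among the other 9 ligands in FeNonAD the log2 fold changes lay between -0.39 for Ccl3 and 1.04 for Ccl4, with edgeR adjusted p of 0.433 or more. The intervals of Ccl6 (-0.96 to 0.81) and Ccl9 (-0.84 to 0.84) stayed below a log2 change of 1, while those of Ccl2, Ccl3, Ccl4, Ccl7, Ccl12, Ccl17 and Ccl22 reached beyond it. For those 7 a rise of the called size lay within the interval. FeNonAD8 decided the direction of 3 of them, since without it Ccl2 was at -0.60, Ccl7 at -0.52 and Ccl12 at -0.27, and of the 10 ligands only Ccl4 (0.34), Ccl8 and Ccl22 (0.32) were then above 0.

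FeNonAD8 was unlike the rest of its group. Its Ccl2 level was 18.5 CPM where the other 7 libraries lay at 0.372 to 3.41, and its Ccl7 level was 23.6 CPM where the next highest was 3.10. It was above every FeCon library for 9 of 10 ligands, Ccl3 being the exception, and none of the other 7 FeNonAD libraries was so for more than 2. Its summed ligand level, 189 CPM per kb, was beyond the FeCon range of 32.7 to 86.6 and inside the FeAAD range of 66.3 to 1504. It also had the highest summed macrophage markers of FeNonAD (1378 CPM, group median 787) and neutrophil markers (7.71, median 3.42).

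In MaNonAD all 10 log2 fold changes were above 0, with a median of 1.36 against -0.017 over all genes. The 9 besides Ccl8 ran from 0.76 for Ccl9 to 1.92 for Ccl4 (SE 0.93, 95% interval 0.048 to 3.79), and their edgeR adjusted p were 0.398 or more. Ccl4 was at 0.78 without MaNonAD1. Ccl2 was at 2.46, 0.828, 1.91 and 1.60 CPM in the 4 libraries, and Ccl7 at 2.63, 0.509, 2.43 and 1.94. Ccl7 lay above the highest of the 10 controls (1.67) in 3 of 4 libraries, and MaNonAD2 was the lowest for 7 of the 10 ligands. MaNonAD1 was above every male control for 8 of 10 ligands and MaNonAD3 for 7, while MaNonAD2 and MaNonAD4 were so for 1 each. The changes were not separable from this spread, and no ligand had male NonAD and control groups that did not overlap. Every MaNonAD library lay above every MaCon library for 0.617% of all genes.

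**Figure D2:**
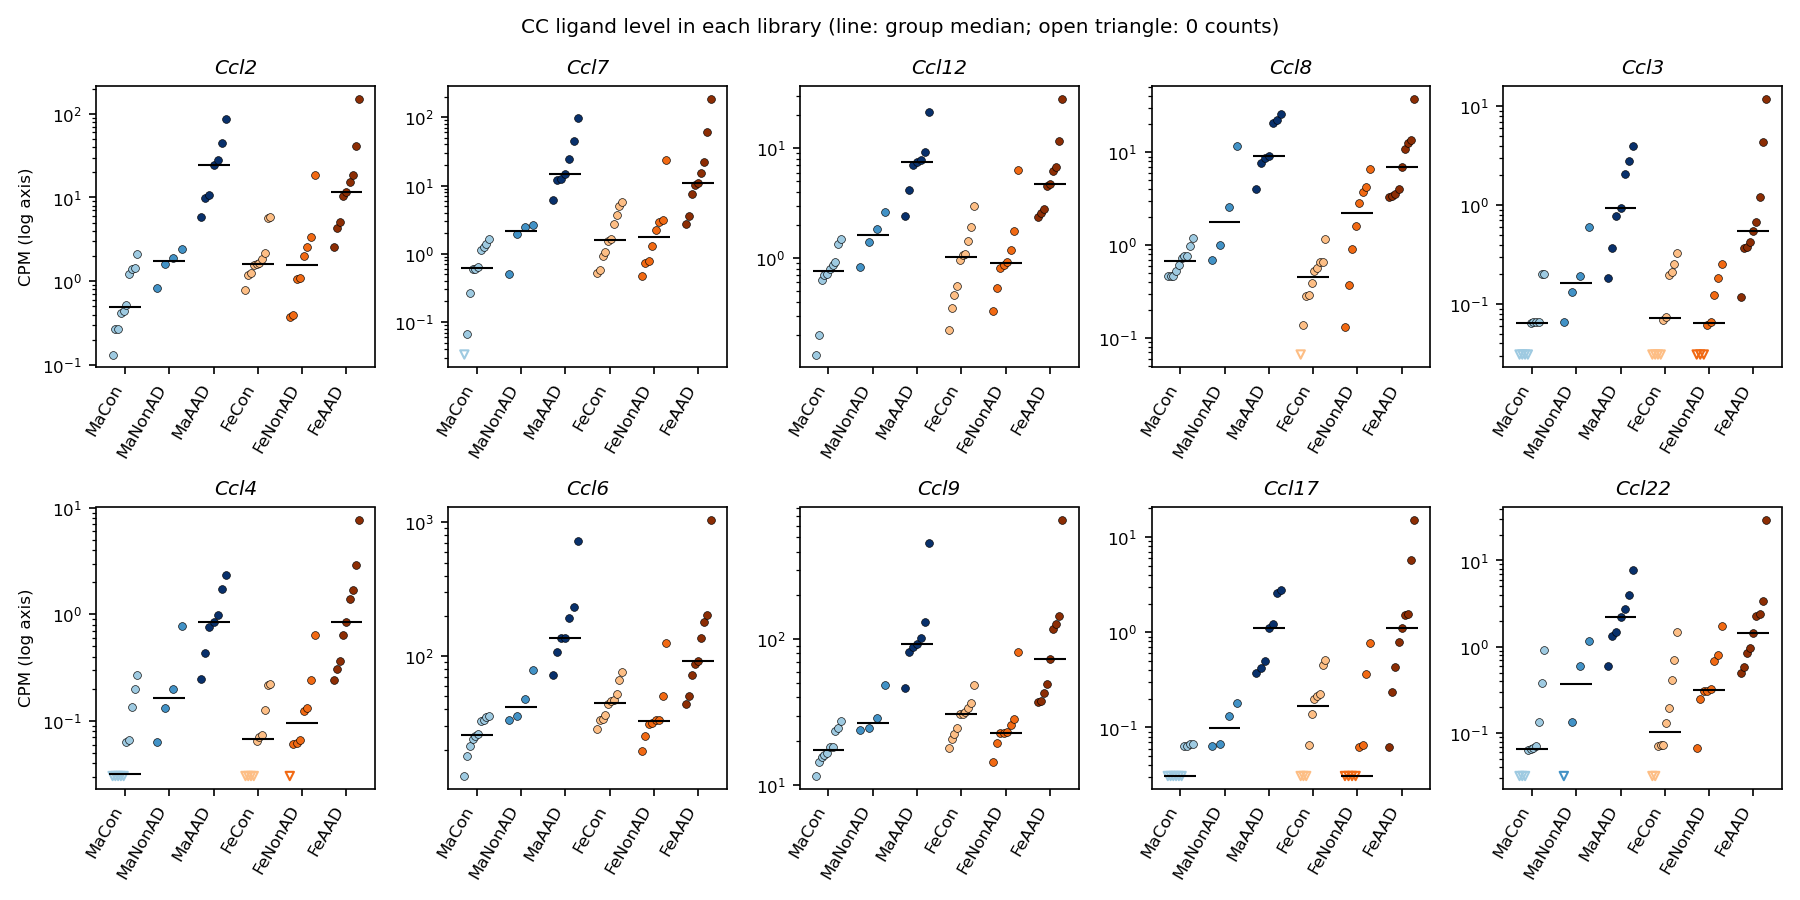
Level of each ligand in every library, in CPM on a log axis, for the 6 groups. Points are sorted by value within a group, lines are medians, and open triangles mark libraries with 0 counts. In FeNonAD 5 of 8 Ccl8 points lie above the highest FeCon point of 1.18 CPM, while for Ccl6 and Ccl9 only FeNonAD8 exceeds the highest FeCon point.

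With a lesion present the ligands were raised. Of the 7 that pass the filter without the lesion libraries, 7 were called higher in FeAAD vs FeCon, where 9.94% of all genes tested were (2.78% lower), and 7 in MaAAD vs MaCon, where 9.18% were (2.18% lower). Their log2 fold changes ran from 2.19 to 4.47 in females (median 3.60, against 0.0013 over all genes) and from 2.93 to 5.29 in males (median 4.01, against -0.030). Ccl3, Ccl4 and Ccl17 were called in both sexes as well, which the filter favoured. Every library of the lesion group lay above every control for 1 of the 7 in females, Ccl8, and for 6 of the 7 in males, all but Ccl22. That held for 3.63% of all genes tested in females and 6.14% in males. Of the other 3, Ccl4 had groups that did not overlap in females and Ccl17 in males.

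Ccl7, Ccl17 and Ccl2 had the highest fold changes in males, in that order and by less than their standard errors apart. Ccl2 went from a median of 0.486 CPM (0.133 to 2.11) in MaCon to 24.4 (5.84 to 85.8) in MaAAD, a log2 fold change of 5.17 (SE 0.75). Ccl7 went from 0.618 (0 to 1.67) to 14.6 (6.15 to 97.7), a change of 5.29 (SE 0.81, edgeR adjusted p = 1.24e-06). The male groups did not overlap for either ligand. In females Ccl2 went from 1.63 CPM (0.780 to 5.89) to 11.6 (2.59 to 151), a change of 3.60 (SE 0.66), and Ccl7 from 1.61 (0.521 to 5.83) to 10.8 (2.71 to 187), a change of 3.90 (SE 0.71). The female groups overlapped, with 6 of 9 FeAAD libraries above the highest control for Ccl2 and 7 of 9 for Ccl7. Without FeAAD5 and MaAAD7 the female changes were 2.52 for Ccl2 and 2.79 for Ccl7, and the male changes 4.65 for both, all still called.

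Ccl12, the third CCR2 ligand of the cluster, moved less. Its median was 0.762 CPM (0.133 to 1.48) in MaCon and 7.44 (2.40 to 21.5) in MaAAD, a log2 fold change of 3.43 (SE 0.53). In females it was 1.02 (0.220 to 2.98) in FeCon and 4.76 (2.35 to 28.1) in FeAAD, a change of 2.79 (SE 0.49, edgeR adjusted p = 1.05e-05). The male groups were apart and the female groups overlapped. With FeAAD5 and MaAAD7 left out the changes were 3.05 in males and 2.22 in females.

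Ccl8, next to Ccl12 on the chromosome, reached 9.22 CPM (4.00 to 26.0) in MaAAD and 7.02 (3.28 to 37.7) in FeAAD. Both lesion groups lay wholly above their controls. The log2 fold change was 4.32 in males (SE 0.57) and 4.47 in females (SE 0.58, edgeR adjusted p = 3.59e-08), with Ccl4 (4.41) within its standard error. The female change was 3.92 without FeAAD5 and MaAAD7. The NonAD change was 58.3% of the AAD change on the log2 scale in males and 54.1% in females. For the other 9 it was between -9.44% (Ccl3) and 23.6% (Ccl4) in females, and between 20.1% (Ccl2) and 51.7% (Ccl4) in males. The male share of Ccl8 rests on MaNonAD3, without which its NonAD change was 1.05. The lowest FeAAD libraries, from 3.28 to 3.99 CPM, overlapped with the upper FeNonAD libraries at 3.78, 4.27 and 6.56.

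Ccl3 and Ccl4, attractants of monocytes and T cells, rose from a handful of counts. Ccl3 was at 0 in 4 of 10 MaCon and 4 of 10 FeCon libraries, with at most 5 counts in any control. It reached a median of 0.931 CPM (0.184 to 3.96) in MaAAD and 0.545 (0.118 to 11.9) in FeAAD. Its log2 fold changes were 4.42 (SE 0.82) and 4.17 (SE 0.74). Ccl4 reached 0.844 CPM (0.248 to 2.33) in MaAAD and 0.855 (0.244 to 7.63) in FeAAD, with changes of 3.71 (SE 0.72) and 4.41 (SE 0.69). All 9 FeAAD libraries were above the highest FeCon value for Ccl4 (0.223 CPM), though the lowest of them held only 4 counts. Without FeAAD5 and MaAAD7 the female changes were 3.03 for Ccl3 and 3.65 for Ccl4, and the male changes 4.04 and 3.41.

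Ccl6 and Ccl9 had the most counts and the smallest fold changes. Ccl6 went from 25.6 CPM (12.7 to 35.6) in MaCon to 137 (72.6 to 726) in MaAAD, a log2 fold change of 3.12 (SE 0.47). In females it went from 44.8 (28.8 to 75.5) to 91.7 (43.9 to 1036), a change of 2.19 (SE 0.44), and 6 of 9 FeAAD libraries were above the highest control. Ccl9 went from 17.5 CPM (11.6 to 27.4) to 92.5 (46.6 to 455) in males, a change of 2.93 (SE 0.44), and from 30.9 (18.1 to 48.3) to 73.6 (37.0 to 655) in females, a change of 2.26 (SE 0.41, edgeR adjusted p = 1.67e-05). FeAAD5 alone held 54.5% of the summed Ccl6 level of its 9 libraries. Without FeAAD5 and MaAAD7 the female changes were 1.23 for Ccl6 and 1.40 for Ccl9, and the male changes 2.51 and 2.31, all still called.

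The CCR4 ligands Ccl17 and Ccl22 also rose in lesions. Ccl17 was at 0.369 to 2.79 CPM in MaAAD (median 1.11) against 0 to 0.067 in MaCon, a log2 fold change of 5.22 (SE 0.96) that rests on few control counts. In FeAAD it was at 0.062 to 15.0 (median 1.10) against 0 to 0.507 in FeCon, a change of 3.94 (SE 0.71). Ccl22 was at 0.603 to 7.82 CPM in MaAAD (median 2.21) and 0.495 to 29.2 in FeAAD (median 1.45), with changes of 4.01 (SE 0.84) and 3.86 (SE 0.76, edgeR adjusted p = 5.63e-05). FeAAD5 held 70.2% of the summed Ccl22 level of FeAAD, and only 4 of 9 FeAAD libraries exceeded the highest control library, FeCon7 at 1.49 CPM. Without FeAAD5 and MaAAD7 the female changes were 2.28 for Ccl22 and 2.89 for Ccl17.

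**Figure D3:**
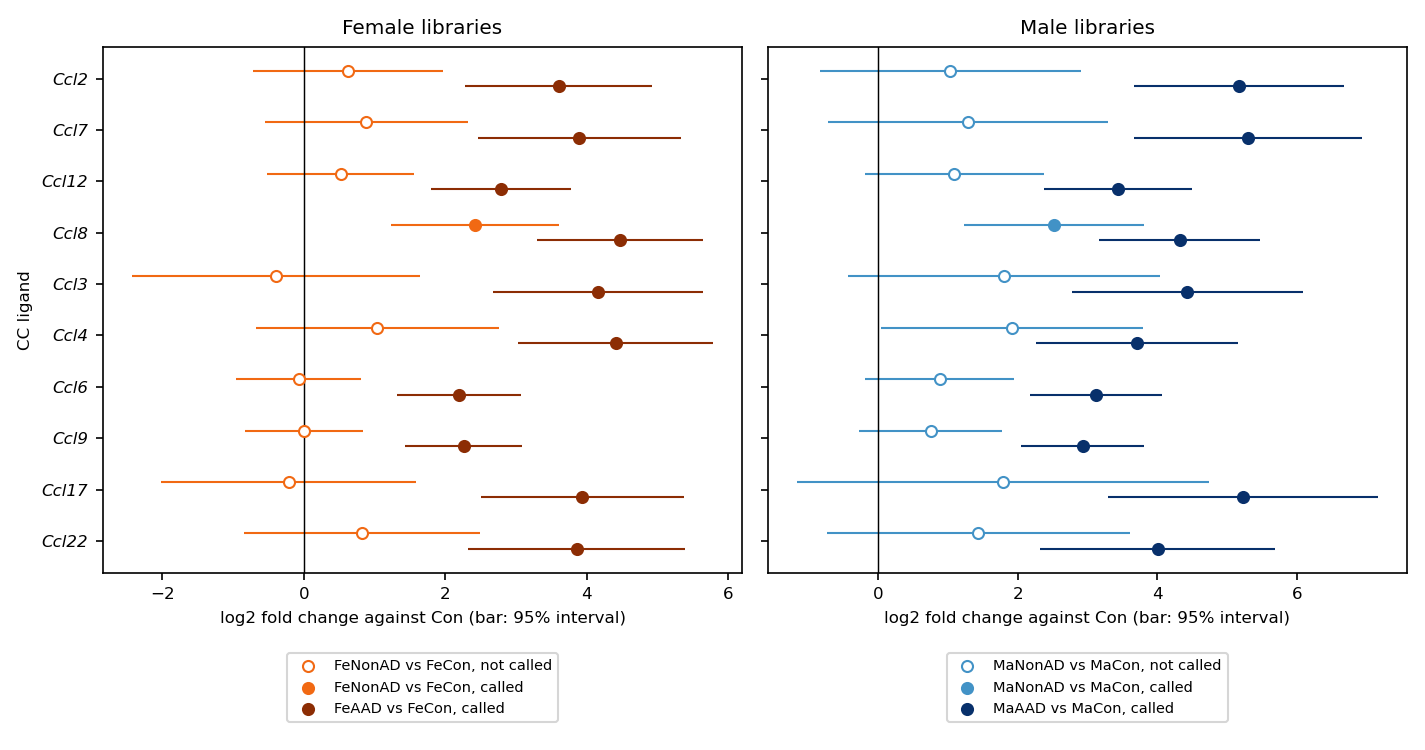
Log2 fold change of each ligand against same-sex controls, NonAD above AAD, with 95% intervals from the edgeR fit (left females, right males). Filled points passed the call. Ccl8 is the only filled NonAD point, at 2.42 in females and 2.52 in males, and all AAD points are filled.

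The direct comparison of BAPN-treated mice with and without a lesion gave many calls in females and few in males. In FeAAD vs FeNonAD 7 of the 7 ligands were called higher, against 6.79% of all genes tested (0.249% lower), with log2 fold changes from 2.05 for Ccl8 to 3.04 for Ccl22 (median 2.27, against -0.0014 over all genes). Ccl3 (4.56), Ccl4 (3.37) and Ccl17 (4.15), which passed the filter through AAD, were called too. No ligand had groups that did not overlap, and every FeAAD library lay above every FeNonAD library for 0.166% of all genes. The step of Ccl8 was 2.05 (SE 0.53, edgeR adjusted p = 0.0051), with Ccl6, Ccl9 and Ccl12 within its standard error. Without FeNonAD8 the steps of the 7 ran from 2.41 (Ccl8) to 4.42 (Ccl7), with Ccl2 at 4.21 and Ccl12 at 3.07. Without FeAAD5 and MaAAD7 the call of Ccl22 was lost, at 1.46 (edgeR adjusted p = 0.152), and the other 9 stayed called, at 1.29 (Ccl6) to 3.42 (Ccl3).

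In MaAAD vs MaNonAD only Ccl2 was called, at 4.13 (SE 1.02, edgeR adjusted p = 0.0497), where 0.353% of all genes were called higher and 0% lower. The next adjusted p were 0.0507 for Ccl7 (4.01) and Ccl9 (2.18), 0.0544 for Ccl6 (2.24) and 0.0629 for Ccl12 (2.33). Of the 7, 7 had an unadjusted p under 0.05, as had 18.7% of all genes, and their median change was 2.33, against 0.0033 over all genes. Ccl2 and Ccl7 of the 7, and Ccl17, had every MaAAD library above every MaNonAD library, as had 2.97% of all genes in this comparison of 7 with 4 libraries. The step of Ccl8 was 1.80 (95% interval 0.39 to 3.21, edgeR adjusted p = 0.142). The Ccl2 call did not hold without MaNonAD2 (3.89, edgeR adjusted p = 0.288), MaNonAD3 (4.18, 0.121) or MaNonAD4 (4.10, 0.161). It was also lost with no filter on low counts, with only the compared groups fitted and under the replicate block. DESeq2 called Ccl2, Ccl6, Ccl7, Ccl9 and Ccl12 here, and also Ccl17, which entered the test only through the lesion libraries. With FeAAD5 and MaAAD7 left out, Ccl2 was at 3.59, Ccl7 at 3.34, Ccl6 at 1.59 and Ccl9 at 1.52, and Ccl2, Ccl6 and Ccl9 were called.

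Placed by these calls, Ccl8 was already raised in NonAD, in females under every alternative run while the male call was lost without MaNonAD1 or MaNonAD3, with no filter on low counts and under the replicate block. In females Ccl2, Ccl6, Ccl7, Ccl9, Ccl12 and Ccl22 met the rule for raised only in AAD. They were not called in FeNonAD, and called higher in FeAAD than in both other groups. The rule rests on calls, and for Ccl2, Ccl7, Ccl12 and Ccl22 a FeNonAD rise of the called size lay within the interval. For Ccl22 the step from FeNonAD was lost without FeAAD5 and MaAAD7 and under the replicate block, and for Ccl7 when only the compared groups were fitted. Ccl3, Ccl4 and Ccl17 met the same calls in females, but entered the test only through the lesion libraries and are not placed. In males Ccl2 met the rule for raised only in AAD, with a call near the threshold. That call was lost without MaNonAD2, MaNonAD3 or MaNonAD4, with no filter on low counts, with only the compared groups fitted and under the replicate block. A MaNonAD rise of the called size lay within the interval of Ccl2 (-0.83 to 2.90). Ccl6, Ccl7, Ccl9, Ccl12 and Ccl22 were called in MaAAD but could not be placed, since neither the NonAD rise nor the further step in AAD was called, and the same held for Ccl3, Ccl4 and Ccl17. Whether Ccl8 differed from the other ligands in its NonAD response was not tested. The placements share control and NonAD libraries within a sex.

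**Figure D4:**
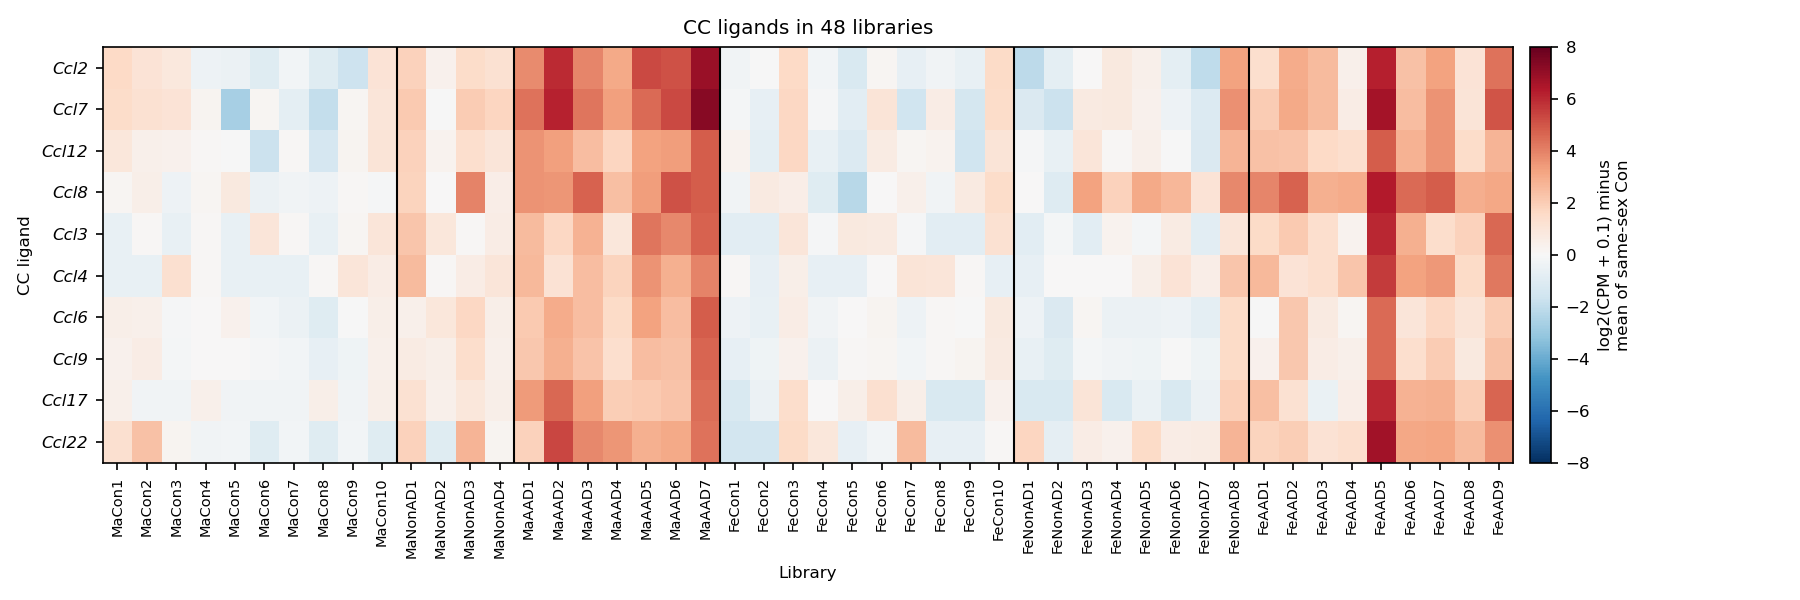
Each ligand in each of the 48 libraries, as log2(CPM + 0.1) minus the mean of the same-sex controls, red above and blue below. FeNonAD8 is red across all 10 ligands, and FeAAD5 is the darkest FeAAD column. In FeNonAD 5 libraries exceed the highest FeCon level of Ccl8, while Ccl6 and Ccl9 do so in 1.

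No ligand was called between the sexes by edgeR over all groups. In MaCon vs FeCon 0 of 10 ligands were called by edgeR, where 0.644% of all genes were called higher and 0.866% lower. Unadjusted p under 0.05 were found for 3 of them, Ccl2 (-1.52), Ccl7 (-1.63) and Ccl17 (-2.48, log2 male minus female), a share like the 29.1% of all genes. DESeq2 called 1, Ccl17, and edgeR on the compared groups alone called Ccl2 and Ccl7. In this comparison 9 of 10 estimates were lower in males, with a median of -0.78 (0.020 over all genes). No ligand had groups that did not overlap between the sexes. Every male library lay above every female library for 0.097% of all genes in controls, 0.34% in NonAD and 0.0346% in AAD. The share in the opposite direction was not counted. In MaNonAD vs FeNonAD (0.0416% higher and 0.00693% lower over all genes) and MaAAD vs FeAAD (0.0554% and 0.0139%) no ligand was called by edgeR or DESeq2 and none had an unadjusted p under 0.05. The same held for the difference between the male and female responses to BAPN without a lesion (0.215% and 0.0832% of all genes), with a lesion (0.346% and 0.173%), and for the step from NonAD to AAD (0% of all genes in both directions). The intervals were wide: for Ccl2 the male response to AAD exceeded the female response by 1.56 on the log2 scale, with an interval from -0.36 to 3.49.

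Of the 14 other CC ligands on the list 12 were in the table and 10 were tested. None was called in NonAD of either sex. In FeAAD vs FeCon 2 were called higher and 1 lower, and in MaAAD vs MaCon 2 higher and none lower, with medians of 0.47 and 0.35. Ccl5, an attractant of T cells and monocytes, rose by 2.53 in females (SE 0.50) and 2.58 in males (SE 0.48). Ccl5 had NonAD changes of 1.25 (edgeR adjusted p = 0.105) and 1.58 (0.202). Ccl19, a ligand of CCR7, was called in males (1.33) and Ccl21a in females (1.90), while Ccl21b fell in females (-1.27). The rows of Ccl19, Ccl21a and Ccl21b held values that were not whole in 44 to 48 of 48 libraries. Such values arise when reads are divided among similar sequences, which was not tested here, and these values are uncertain. Among the 10 ligands described here only Ccl9 had such a value, in 1 library. Ccl11, the eosinophil attractant that lies in the Ccl2 cluster, was at a mean of 10.7 CPM in FeCon and 9.05 in FeAAD (-0.24, edgeR adjusted p = 0.46) and at 11.8 in MaCon and 12.8 in MaAAD (0.12, 0.762).

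Ccr1 and Ccr2, receptors of ligands described here, and Ccr7, the receptor of Ccl19 and Ccl21, were called higher in FeAAD vs FeCon and in MaAAD vs MaCon. Ccr2, the receptor of Ccl2, Ccl7 and Ccl12, went from a mean of 3.10 to 57.1 CPM in females (4.19, SE 0.53) and from 2.92 to 71.6 in males (4.61, SE 0.55). Ccr1 rose by 3.35 and 4.22, and Ccr7 by 3.30 and 2.80. Ccr9 and Ccr10, receptors of other CC ligands, were not called, at -0.38 and -0.65 in females and -1.40 and -0.41 in males. Ccr1, Ccr2 and Ccr7 were also called in FeAAD vs FeNonAD, and none of them in MaAAD vs MaNonAD. Of these 3, only Ccr2 was called in NonAD, at 1.51 in females (SE 0.52, edgeR adjusted p = 0.0404). In males its NonAD change was 1.98 (0.119). Ccr8, through which mouse Ccl8 signals, did not pass the filter and had at most 4 counts in any library, and Ccr4, the receptor of Ccl17 and Ccl22, had at most 10. Of the 5 genes listed as decoy and atypical receptors, none was called in any NonAD or AAD comparison. Ccrl2 was at a mean of 9.33 CPM in MaAAD and 16.9 in MaCon (-0.86, edgeR adjusted p = 5.76e-05), short of the fold needed.

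Of 11 cytokines known to induce chemokines 6 were tested. Of these 4 were called higher in each sex with a lesion, led by Il1b (6.84 in females, 5.41 in males) and Il6 (6.26 and 6.25), followed by Tnf (2.14 and 2.89) and Il33 (1.87 and 1.92). Il6 was the only one called in FeNonAD vs FeCon (3.69, SE 0.97, edgeR adjusted p = 0.00791), and none was called in MaNonAD vs MaCon. Il4 was at 0 in every library. Of the 10 NF-kB subunits and inhibitors, 1 was called higher in both AAD comparisons, Nfkbie, an inhibitor (1.60 in each sex). Their medians were 0.36 and 0.31.

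Markers of myeloid cells moved with the ligands. In AAD vs Con 12 of 14 macrophage markers were called higher in each sex, led by Fcgr1 in females (3.43) and Itgam in males (3.51). Their summed level ranged from 538 to 947 CPM in FeCon, 588 to 1378 in FeNonAD and 948 to 6704 in FeAAD, and from 497 to 849 in MaCon, 793 to 1152 in MaNonAD and 1205 to 4728 in MaAAD. In NonAD none of the 14 was called in either sex, with medians of 0.35 in females and 0.72 in males. In FeAAD vs FeNonAD 11 of 14 were called and in MaAAD vs MaNonAD 2. Of 7 monocyte markers 6 were called in each AAD comparison, and 1 in each NonAD comparison, Ccr2, also on the receptor list, in females and fibronectin (Fn1, 1.07), which smooth muscle cells and fibroblasts express too, in males. Of 7 neutrophil markers 6 were tested. In AAD 6 were called in females, led by S100a8 (6.50), and 5 in males, led by Cxcr2 (4.48), and none in NonAD. Their sum ranged from 1.28 to 5.89 CPM in FeCon and from 6.13 to 888 in FeAAD, with FeAAD5 the highest. Of the 9 dendritic cell markers 8 were called in each AAD comparison, and Cd209a (2.05) and Clec9a (2.02) in FeNonAD.

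None of the 7 resident macrophage markers was called in NonAD of either sex or in FeAAD vs FeCon, and 1, F13a1 (1.21), in MaAAD vs MaCon. Below the fold needed for a call, Cbr2 was at -0.62 in FeAAD (edgeR adjusted p = 0.00201) and -0.85 in MaAAD (0.000204), Timd4 at -0.87 in MaAAD (0.0223) and F13a1 at 0.92 in FeAAD (0.0004). Of the 5 B cell markers 4 were called in MaNonAD and 1 in FeNonAD, 5 in FeAAD and 3 in MaAAD, while no T cell marker was called in any of these. Smooth muscle markers went the other way, with 3 of 6 called lower in each AAD comparison and medians of -1.01 in females and -0.98 in males. Fibroblast markers were called higher for 2 of 6 in each AAD comparison, and no endothelial or brown fat marker was called. Heart muscle markers were called lower for 3 of 6 in FeAAD. The part of these cell types in the ligand levels was not tested.

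Within the lesion groups the ligands rose and fell together from mouse to mouse. Over the 16 AAD libraries, with each group's mean removed, the 45 pairs of ligands and the 10 pairs of a ligand with the mean of the macrophage markers gave Pearson r from 0.53 to 0.98 on log2(CPM + 1). All 55 had an adjusted permutation p under 0.05 for r, and 41 for Spearman's rho. Much of this rested on FeAAD5 and MaAAD7, since without both libraries, a choice made after seeing the data, r ranged from -0.02 to 0.95 with a median of 0.53, and 10 of 55 remained under 0.05 (6 for rho).

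Of those 10, 4 were pairs of chromosomal neighbours, 5 were other pairs of ligands and 1 was Ccl8 with the macrophage markers. Over the 14 libraries r was 0.95 for Ccl2 and Ccl7 (rho 0.94, adjusted permutation p = 0.000275 for both) and 0.93 for Ccl6 and Ccl9 (rho 0.94, adjusted permutation p = 0.000275 for both), each raw p being the smallest the 100000 permutations can give, 1e-05. For Ccl3 and Ccl4 r was 0.77 (adjusted permutation p = 0.0148) and rho 0.63 (0.0839), and r fell to 0.42 when FeAAD9 and MaAAD5 were left out as well. For Ccl17 and Ccl22 r was 0.75 (adjusted permutation p = 0.00872) and rho 0.71 (0.0512), and r was 0.51 without FeAAD9 and MaAAD2. Across the clusters Ccl2 and Ccl9 were at 0.86, Ccl7 and Ccl9 at 0.84, and Ccl2 and Ccl6 at 0.83. Ccl7 with Ccl17 and Ccl6 with Ccl7 were both under 0.05 for r and not for rho. Ccl12 and Ccl8, also neighbours, were at 0.59 (adjusted permutation p = 0.0899), and Ccl8 with Ccl2 and Ccl7 at 0.29 and 0.33.

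Ccl8 went with the macrophage markers. Over 16 libraries r was 0.87 (rho 0.83, adjusted permutation p = 0.000495 and 0.00244), and over the 14 libraries without FeAAD5 and MaAAD7 it was 0.83 (rho 0.78, adjusted permutation p = 0.00724 and 0.0171). For the other 9 ligands r with the markers was 0.58 to 0.86 over 16 libraries and -0.02 to 0.57 over 14. The difference between Ccl8 and the others in this relation was not tested.

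**Figure D5:**
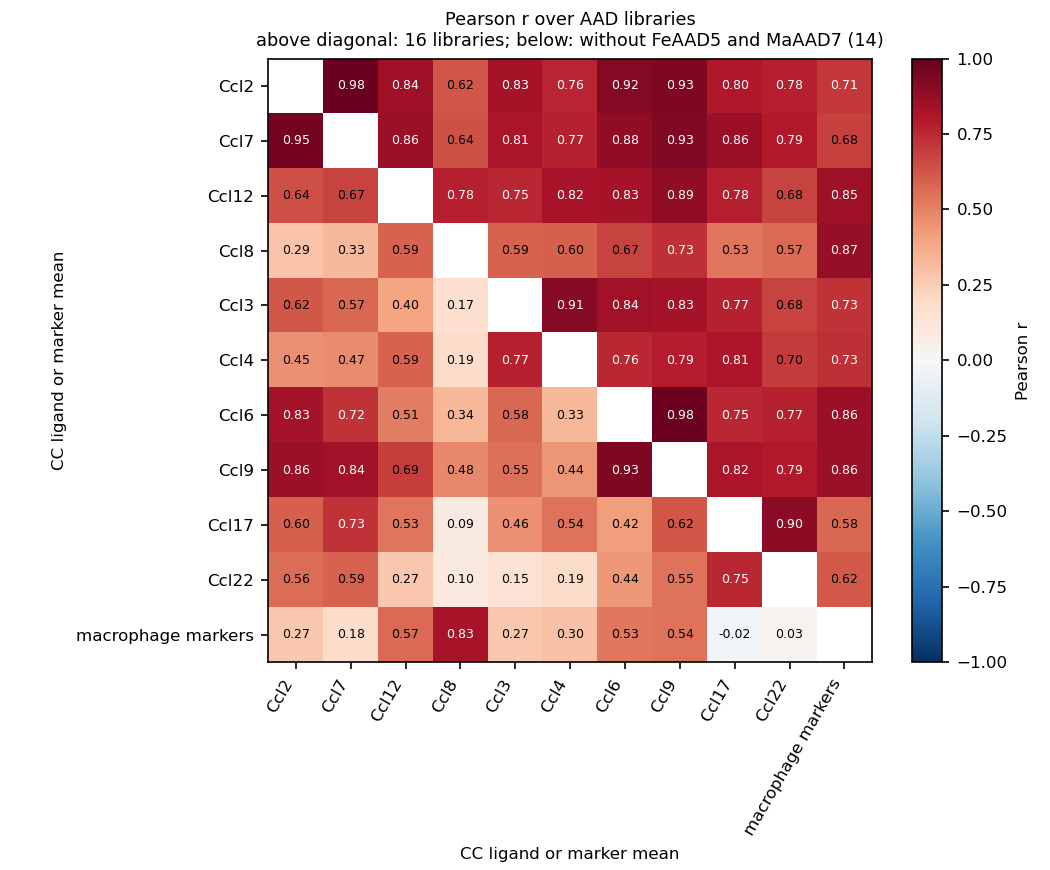
Pearson r between ligands, and with the mean of 14 macrophage markers, over AAD libraries after removing group means, on log2(CPM + 1). Above the diagonal are all 16 libraries and below it the 14 without FeAAD5 and MaAAD7, where Ccl2 with Ccl7 (0.95), Ccl6 with Ccl9 (0.93) and Ccl8 with the markers (0.83) stay high.

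The genes most like each ligand were sought among 13700 tested genes averaging 10 counts or more, by r of deviations from the group mean over 48 libraries. These are descriptions, to which the libraries that stand apart contribute most. Ccl2 and Ccl7 shared the same top 3 genes, Ccr1 (0.89 and 0.90), Msr1, a scavenger receptor (both 0.88), and Plek (0.86 and 0.87). Ccl6 and Ccl9 both had Ms4a6d first (0.93 and 0.94), followed by Alox5ap and Msr1 for Ccl6 and by the Fc receptor Fcgr2b and Dok2 for Ccl9. Ccl12 was most like the Fc receptor Fcgr1 (0.90), Ms4a6d (0.89) and Sting1 (0.86). Ccl17 was closest to Il1r2, a decoy receptor of interleukin 1 (0.89), the neutrophil attractant Cxcl2 and the neutrophil protein Cd177 (both 0.88), and Ccl22 to Bcl2a1d (0.80), Cxcl2 (0.79) and Cdh1 (0.78). Ccl3 came with Steap1, F7 and Bcl2a1a (0.92 to 0.91), and Ccl4 with AA467197, Scimp and Bcl2a1a (0.90 to 0.88). Bcl2a1a and Bcl2a1d are near-identical copies, so their own counts are uncertain.

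Ccl8 had lower r with its nearest genes than the other ligands of its cluster. Its nearest genes were Wfdc17 (0.82) and the myeloid receptors Pirb and Clec4a2 (0.81 and 0.80), and its nearest fellow ligand was Ccl9 at 0.69, whereas Ccl2 and Ccl7 were at 0.96. Wfdc17, Pirb and Clec4a2 were called in both AAD comparisons (2.72 to 2.92) and in no NonAD comparison, where they stood at 0.68 to 0.98 in females and 0.93 to 1.24 in males. Ccl8 stood at 2.42 in females and 2.52 in males there, the male value being 1.05 without MaNonAD3.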

How the data were processed

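Thoracic aortas of 48 mice gave 48 libraries, grouped by the sample labels. Per the labels, total RNA was extracted with a column kit and made into mRNA libraries, and the submitters' processing notes name Bowtie2, RSEM 1.3.1 and GRCm39. The values deposited by the authors are RSEM expected counts for each gene in each mouse, not scaled to library size. Of the values 4.99% were not whole, and all were rounded to whole counts here. Totals of 13548000 to 17281273 counts limit the precision of ligands with few counts.

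Counts were fitted in edgeR 4.0.16 (R 4.3.3) with filterByExpr, TMM and robust quasi-likelihood, as 6 group means over all 48 libraries, for 9 pairwise and 3 interaction contrasts. Adjusted p are Benjamini-Hochberg values over 14431 genes. Standard errors were derived from the F statistics. p-values measure the spread between these mice. CPM used TMM-scaled totals, and levels per kb the longest GENCODE M21 transcript. Correlations used 100000 permutations within group. The fit was tested on simulated data. Alternatives were DESeq2 1.42.0 and its size factors, no filter, compared groups only, a replicate block and left-out libraries. Ligands and lists were chosen with earlier results of these data known, and the TATAAA search was added after seeing the sequences. Text names every ligand, the 3 genes most like each, and up to 4 called genes per list. Of the CC receptors, 1 is not reported here.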

Additional observations from a re-analysis of the deposited data

Results flagged for a closer look

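Each ligand was tested in each group for a library whose gap to its nearest neighbour was large for the range of the group (Dixon's criterion at 95%), and 24 of 60 tests were positive. The criterion assumes normally distributed values, which was not checked for these CPM, so no share expected by chance is given. The tests are also not independent because 1 library can be apart for many ligands.

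FeAAD5 was the library in 10 of the 24. It held 151 CPM of Ccl2, 11.9 of Ccl3, 7.63 of Ccl4, 1036 of Ccl6, 187 of Ccl7, 37.7 of Ccl8, 655 of Ccl9, 28.1 of Ccl12, 15.0 of Ccl17 and 29.2 of Ccl22. It also had the highest summed neutrophil markers (888 CPM), macrophage markers (6704 CPM) and dendritic cell markers (141 CPM) of FeAAD.

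FeNonAD8 accounted for 7, with 18.5 CPM of Ccl2, 0.637 of Ccl4, 126 of Ccl6, 23.6 of Ccl7, 81.6 of Ccl9, 6.37 of Ccl12 and 1.72 of Ccl22. Its Ccl8 level of 6.56 CPM was the highest of its group and was not apart from the rest.

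MaAAD7 accounted for 4, with 726 CPM of Ccl6, 97.7 of Ccl7, 455 of Ccl9 and 21.5 of Ccl12. It had the highest summed macrophage markers (4728 CPM) and neutrophil markers (241 CPM) of MaAAD. MaNonAD3 was apart for Ccl8 at 11.8 CPM. In controls the criterion picked Ccl22 in MaCon2 (0.916 CPM), whose T cell markers summed to 183 CPM against a group median of 11.5, and in FeCon7 (1.49 CPM).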

How the results depend on the processing

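The calls of the 7 ligands that pass the filter without lesion libraries kept their direction and their side of the threshold in FeAAD vs FeCon and MaAAD vs MaCon under every alternative run, with log2 fold changes of 1.23 to 4.50 and 2.31 to 5.46. The Ccl8 call in FeNonAD vs FeCon was kept under all of them. In MaNonAD vs MaCon the count of 1 became 0 with no filter on low counts (Ccl8 2.56, adjusted p = 0.0543) and ranged from 0 to 1 when each MaNonAD library was left out. In MaAAD vs MaNonAD the count, here over all 10 ligands, was 1. It was 3 with DESeq2 size factors, 0 with no filter and 0 when only the compared groups were fitted. With DESeq2 it was 6, among them Ccl17, which entered the test only through the lesion libraries. It was 0 to 2 when each MaNonAD library was left out, 5 without FeNonAD8 and 3 without FeAAD5 and MaAAD7. In FeAAD vs FeNonAD 7 of the 7 became 6 when only the compared groups were fitted, where Ccl3, Ccl4 and Ccl17 gave no value and Ccl7 was lost (3.02, adjusted p = 0.0543). In MaCon vs FeCon the count of 0 was 1 with DESeq2 (Ccl17) and 2 with only the compared groups (Ccl2 and Ccl7). The causes of these shifts were not tested, though an adjusted p near 0.05 moves with the set of genes tested. Over the AAD libraries 55 relations fell to 10 without FeAAD5 and MaAAD7.

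Deviations of same-numbered libraries from their group means had a mean r of -0.066 (MaAAD vs MaCon) to 0.16 (MaAAD vs FeAAD). Pairs above 0.1 were 0 of 9 in FeAAD vs FeCon and 3 of 8 in FeNonAD vs FeCon and FeAAD vs FeNonAD. They were 3 of 7 in MaAAD vs FeAAD and 2 of 4 in MaNonAD vs FeNonAD. A link by number was not tested further, and the numbers were not taken as pairs. With the replicate number as a block the counts in MaNonAD vs MaCon and MaAAD vs MaNonAD were 0, and the calls of Ccl8 (2.47, adjusted p = 0.0953), Ccl2 (3.70, 0.229) and, in FeAAD vs FeNonAD, Ccl22 (2.35, 0.053) were lost. In FeNonAD vs FeCon the block put Ccl3 at 0.19 and Ccl9 at 0.069.

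Directions that turned were all in FeNonAD vs FeCon. Ccl9, at -0.0011, was at 0.0095 with no filter, 0.0037 with only the compared groups, 0.0044 without MaNonAD2 or MaNonAD3 and 0.0045 without FeAAD5 and MaAAD7. With libraries left out, Ccl2 ranged from -0.60 to 0.63, Ccl7 from -0.52 to 0.89, Ccl9 from -0.41 to 0.0045 and Ccl12 from -0.27 to 0.53, each lowest value being without FeNonAD8.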
